A study of Mus musculus with 2 samples.

Results

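The cells described here are the classical monocytes of AT3 mammary tumors, 104 of 6363 cells that passed the filters on 500 to 7500 detected genes and at most 15% mitochondrial UMIs (unique molecular identifiers, which tell captured RNA molecules apart). They were chosen by their own UMI counts, so the genes of the rule are a description and not a finding. A cell was taken with at least 3 UMIs of Ly6c2 and Chil3 together and at least 2 of the monocytic genes Ms4a6c, Csf1r and Fcgr1. It could have at most 1 UMI of Cd3d, Cd3e and Cd3g, fewer than 30 of C1qa, C1qb and C1qc, and at most 2 of Ace, Adgre4 and Ear2, which mark non-classical monocytes. The rule found 35 cells in the Pgd fl/fl library and 69 in the Pgd fl/fl LysMCre library.

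Pgd encodes 6-phosphogluconate dehydrogenase (6PGD), and the study compared tumor-infiltrating leukocytes of mice with floxed Pgd alleles alone and of mice that also carried LysMCre. Both groups were female, 6 to 12 weeks old, received 500000 AT3 cells in the mammary fat pad and were taken on day 30, and each library came from the pooled tumors of 10 mice. LysMCre places Cre in the Lyz2 locus, so it acts in myeloid cells in general, neutrophils and macrophages included, and the Pgd fl/fl mice carry no Cre. The labels name a sort of live CD45+ cells in one sentence and of live CD11b+ cells in another. The methods of the study describe the CD45+ sort, and 2907 of the 6363 kept cells were taken as T cells here. Before loading in common, the cells of each genotype received their own oligonucleotide tag. With 1 library per genotype there is no replicate, no test between genotypes is possible, and the genotype cannot be told apart from the library.

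Classical monocytes leave the bone marrow by way of the chemokine receptor CCR2, carry the surface antigen Ly6C and enter inflamed tissue and tumors, where they can become macrophages. Monocytic myeloid-derived suppressor cells of mouse tumors are recognised by the same Ly6C antigen. 6PGD is the enzyme of the oxidative branch of the pentose phosphate pathway that turns 6-phosphogluconate into ribulose 5-phosphate and yields NADPH.

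The antigen Ly6C is encoded by the near-identical genes Ly6c2 (chr15:75108161-75112066) and Ly6c1, and a promoter window of each is shown because the rule rests on one of them. The windows run from 250 bases before to 50 bases after an annotated start site on the minus strand, 5′ to 3′, and come from RefSeq on GRCm38.p6, the assembly that the mm10 label of the files names. The table holds 2 windows for each gene, and those shown were picked for holding letters of interest. Capitals mark the letters GAGGAAGT, a form of the motif of PU.1 (Spi1), a myeloid transcription factor.
Ly6c2, chr15:75111922-75112221: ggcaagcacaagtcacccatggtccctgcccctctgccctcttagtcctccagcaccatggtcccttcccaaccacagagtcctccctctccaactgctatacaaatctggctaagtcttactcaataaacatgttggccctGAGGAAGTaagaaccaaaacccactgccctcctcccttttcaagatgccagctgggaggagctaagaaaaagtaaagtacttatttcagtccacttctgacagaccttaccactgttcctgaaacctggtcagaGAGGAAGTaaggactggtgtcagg
Ly6c1, chr15:75048614-75048913: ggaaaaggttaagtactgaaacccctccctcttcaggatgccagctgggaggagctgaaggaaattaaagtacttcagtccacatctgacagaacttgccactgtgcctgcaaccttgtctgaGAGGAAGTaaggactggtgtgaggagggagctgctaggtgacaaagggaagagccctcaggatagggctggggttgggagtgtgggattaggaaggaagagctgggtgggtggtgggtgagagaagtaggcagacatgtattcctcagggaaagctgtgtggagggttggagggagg
In the Ly6c2 window the letters stood 2 times, from 108 bases before the start site and from base 27 after it. In the Ly6c1 window shown they stood 1 time, from 127 bases before the start site. In the other Ly6c1 window, chr15:75048788-75049087, they stood 0 times, and in the other Ly6c2 window, chr15:75111888-75112187, 2 times. A global alignment with no penalty for end gaps paired 143 bases of the windows shown, of which 124 (86.7%) were identical. The other Ly6c1 window aligned with the Ly6c2 window shown over 266 bases, of which 208 (78.2%) were identical. The letters were present on either strand in 1052 of 32851 promoter windows of the same length (3.20%), and no binding was measured here. Of 8 genes looked for, 7 had a window, and Ly6i had none. In the monocytes Ly6c2 had 319 and 733 UMIs, Pgd fl/fl first, and Ly6c1 had 0 and 2. Reads from sequence that both genes share cannot be assigned to one of them, so this split is uncertain.

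A monocyte of the Pgd fl/fl library held a median of 7694 UMIs (3519 to 19236) and 2192 genes, and one of the Pgd fl/fl LysMCre library 6884 UMIs (1642 to 26397) and 1979 genes. Together they gave 297116 and 520361 UMIs. Values given as a pair below are for Pgd fl/fl first and Pgd fl/fl LysMCre second, as UMIs summed over these cells or as CPM, in which the total UMIs of these cells are scaled to 1000000 in each library. Ratios are log2 of the CPM of Pgd fl/fl LysMCre over Pgd fl/fl. All 95% intervals are exact, cover counting error only and are too narrow for a gene whose UMIs sit in few cells. No barcode was shared between the libraries. The tag of its own library was the highest in each of the 35 and 69 cells, while tags of the other library made up 3.55% and 5.2% of their tag UMIs. Since cells loaded in common are assigned to a library by tag, the separate barcodes and the highest tag follow from that assignment and do not check it.

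The classical monocytes were 0.982% (95% interval 0.685 to 1.36) of kept cells in Pgd fl/fl and 2.47% (1.92 to 3.11) in Pgd fl/fl LysMCre. Of the cells with monocytic genes and at most 1 CD3 UMI, they were 35 of 743, or 4.71% (3.30 to 6.49), and 69 of 836, or 8.25% (6.48 to 10.3). The share was higher in Pgd fl/fl LysMCre over both denominators in 1 pool against 1. These intervals are over cells of 1 library each, and those over cells with monocytic genes overlapped. With each cell thinned to 3000 UMIs and 566 and 385 shallower cells left out, the rule took 29 of 2999 cells (0.967%) and 64 of 2413 (2.65%), of which 21 and 42 were members on full counts. The edge of the rule was populated. Of the members, 5 and 11 had exactly 3 UMIs of Ly6c2 and Chil3, and of the cells that met every other criterion, 6 and 11 had exactly 2. In all, 136 and 230 cells failed on that criterion only, and 17 and 36 failed only on C1q.

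Besides Ly6c2 and Chil3, the marker genes given for these cells are Plac8, a cysteine-rich protein of leukocytes, Ms4a4c, a membrane protein of the MS4A family, and Ly6i, a Ly6 surface protein. Ly6c2 had 1074 and 1409 CPM, with a median of 5 and 6 UMIs per cell and a highest of 45 and 40. Chil3, which encodes a secreted chitinase-like lectin, had 404 and 342 CPM and was seen in 20 and 33 cells, with at most 24 and 32 UMIs in a cell. Both libraries thus held cells with and without Chil3. Plac8 had 4005 and 3859 CPM, with a median of 29 and 30 UMIs per cell, a lowest of 0 and 0 and a highest of 84 and 75, and its ratio was -0.05 (-0.16 to 0.05). Ms4a4c had 730.4 and 726 CPM in 34 and 55 cells, ratio -0.01 (-0.25 to 0.24). Plac8 and Ms4a4c were therefore near equal between the libraries in summed level, and their cells covered a similar range. Ms4a4c was still seen in a smaller share of the Pgd fl/fl LysMCre cells. With members on full counts thinned to 3000 UMIs, it was seen in 88.6% of 35 and 70.1% of 67 cells. Ly6i differed most of the 5, at 518 and 152 CPM, ratio -1.77 (-2.18 to -1.37). Its ratio was -3.12 among members with at least 10 UMIs of Ly6c2 and Chil3. With cells thinned to 3000 UMIs and the rule applied again to the thinned counts (29 and 64 cells), it was -0.86. The members on full counts, thinned but not chosen again (35 and 67 cells), had 438 and 144 CPM of Ly6i. All other thinned ratios are over cells chosen again, so they change the cells as well as the depth. Ly6i was found in 16 and 21 cells, its highest cells had 23 and 15 UMIs, and in Pgd fl/fl 63.0% of its UMIs were in the 5 richest cells.

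Shares of thinned cells in which a gene was seen are over cells chosen on full counts, among them 35 and 67 classical monocytes. In cells thinned to 3000 UMIs, Chil3 was seen in 42.9% and 38.8% of classical monocytes and in 0 of 1536 and 1 of 971 T cells. Plac8 was seen in 94.3% and 95.5% of classical monocytes and in 18.9% and 13.4% of T cells. Ly6c2 was seen in 94.3% and 85.1% of classical monocytes and in 34.2% and 32.7% of T cells. The rule itself required UMIs of Ly6c2 or Chil3 in the monocytes. All kept T cells had a median of 5064 and 5661 UMIs before thinning.

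**Figure D1:**
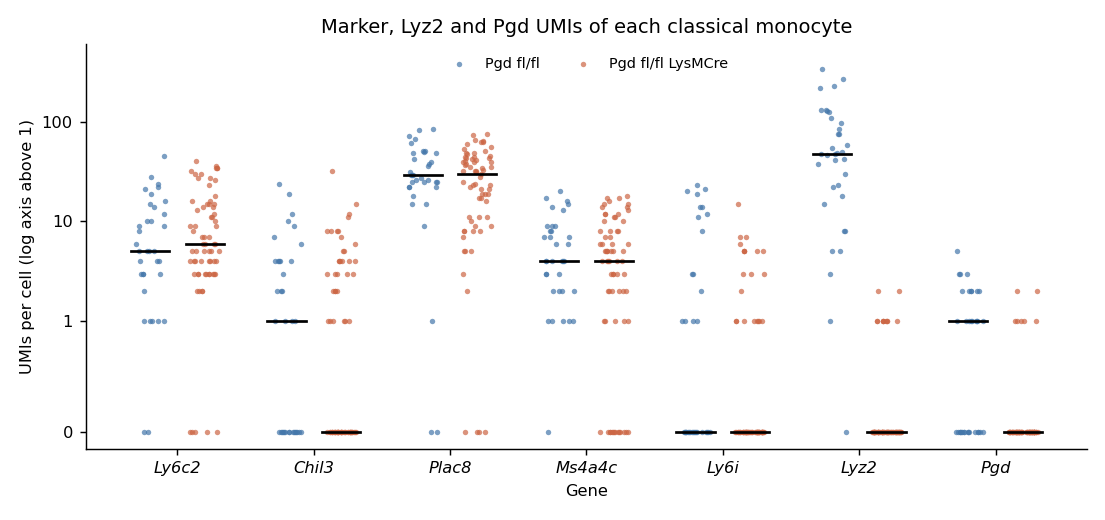
Each point is 1 classical monocyte, placed by its UMIs of a gene (vertical axis, log scale above 1), for Pgd fl/fl (35 cells) and Pgd fl/fl LysMCre (69 cells), and each black line is the median over cells. Plac8 and Ms4a4c cover a similar range in both libraries, Ly6i and Chil3 are at 0 in many cells, and Lyz2 reaches 340 UMIs in Pgd fl/fl and at most 2 in Pgd fl/fl LysMCre.

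Of 16 further classical monocyte genes, 14 had at least 50 UMIs over both libraries. Of these, 3 were at least 1.5-fold higher in Pgd fl/fl LysMCre, Ifitm6 and Cd14 among them, and 1, Klf4, at least 1.5-fold lower, and the median ratio was -0.03. Among all 2144 genes with at least 50 UMIs, 9.93% were at least 1.5-fold higher, 6.81% at least 1.5-fold lower and the median ratio was 0.03, and the counts of lists below stand beside these shares. The ratio of Ifitm6, 0.69, was within 1.5-fold without members that had a UMI of T, B or epithelial genes (0.30), with at least 10 UMIs of Ly6c2 and Chil3 (0.55) and with cells thinned to 3000 UMIs (0.56). Ccr2 had 488 and 398 CPM, ratio -0.29 (-0.61 to 0.02), and was seen in 31 and 47 cells. S100a4, a calcium-binding protein of motile cells, had 2942 and 2416 CPM, ratio -0.28 (-0.41 to -0.16).

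Genes of other cell types were looked for in the same cells. The summed level of 22 macrophage genes was 4149.9 and 5967 CPM, with 0 cells at 0 UMIs, beside 6731 and 6488 CPM of the marker genes given for the monocytes. S100a9, Retnlg, Cd79a, Cd4, Krt8, Krt18, Col1a1 and Col1a2 were at 0 in both libraries. The summed level of 12 T cell genes was 47.1 and 183 CPM, with 0 to 4 and 0 to 15 UMIs in a cell and 0 UMIs in 24 and 42 cells. That of 8 NK cell genes was 97.6 and 284 CPM, with at most 8 and 58 UMIs in a cell. That of 10 dendritic cell genes was 135 and 194 CPM, and that of 7 epithelial genes 108 and 51.9 CPM. That of 12 neutrophil genes was 114 and 67.3 CPM, and that of 9 B cell genes 155 and 138 CPM. T and NK cell genes were thus higher in Pgd fl/fl LysMCre. At least 3 UMIs of another type were present in 4 and 10 members, 2 and 8 of them with dendritic cell genes, and no doublets were called. Their part in the ratios below was not tested beyond leaving such cells out. Siglech and Ly6d, genes of plasmacytoid dendritic cells, together had 1 and 170 UMIs, with up to 1 and 115 in a cell and at least 3 in 0 and 2 members. Ly6d alone had 0 and 150 UMIs, all in 4 cells, the NK cell granzyme gene Gzma 0 and 53 UMIs in 3 cells, and the cytokine receptor gene Il7r 6 and 57 UMIs in 4 and 14 cells. Of these, Ly6d and Il7r were named after their values were seen.

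Pgd itself was lower in the Pgd fl/fl LysMCre monocytes. It had 35 and 9 UMIs, or 118 and 17.3 CPM, a 6.81-fold difference with a ratio of -2.77 (-4.01 to -1.68). A Pgd UMI was found in 19 and 7 cells, with at most 5 and 2 per cell. In cells thinned to 3000 UMIs, 20.0% of Pgd fl/fl monocytes had a Pgd UMI against 7.88% of T cells, and 4.48% of Pgd fl/fl LysMCre monocytes against 7.31% of T cells. In the Pgd fl/fl LysMCre library the share in monocytes was thus not above that in T cells. The ratio was -1.98 (-2.22 to -1.74) in C1q macrophages (at least 30 C1q UMIs), -3.26 (-5.72 to -1.37) in non-classical monocytes, -1.74 (-4.32 to 0.39) in neutrophils and 0.15 (-0.10 to 0.40) in T cells. The interval of the classical monocytes overlapped those of the other myeloid groups and not that of the T cells. Which exons of Pgd (chr4:149149991-149166705) are flanked is not given in the sources used here, so UMIs of a shortened transcript may be among those counted.

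Lyz2, the lysozyme gene whose locus carries Cre in LysMCre mice, had 2620 and 13 UMIs, or 8818 and 25 CPM, ratio -8.46 (-9.37 to -7.69). It was seen in 34 and 11 cells, with a median of 47 and 0 and a highest of 340 and 2 UMIs. Only in Pgd fl/fl did a monocyte hold more than 2. Its paralog Lyz1 had 2 and 44 UMIs, ratio 3.65 (1.71 to 6.74), and was named after its values were seen. Reads that both genes share cannot be told apart. The ratio of Lyz2 was -8.09 (-8.42 to -7.77) in C1q macrophages, -9.02 (-10.90 to -7.66) in non-classical monocytes. In neutrophils it was -3.32 (-4.60 to -2.25), from 730.2 and 73.0 CPM, and in T cells -2.04 (-2.49 to -1.62), from 27.6 and 6.72 CPM. The reference window at the Lyz2 start site, the locus that LysMCre alters, is shown from RefSeq on GRCm38.p6, minus strand, 5′ to 3′, with the first ATG after the start site in capitals, at base 31 after that site.
Lyz2, chr10:117282223-117282522: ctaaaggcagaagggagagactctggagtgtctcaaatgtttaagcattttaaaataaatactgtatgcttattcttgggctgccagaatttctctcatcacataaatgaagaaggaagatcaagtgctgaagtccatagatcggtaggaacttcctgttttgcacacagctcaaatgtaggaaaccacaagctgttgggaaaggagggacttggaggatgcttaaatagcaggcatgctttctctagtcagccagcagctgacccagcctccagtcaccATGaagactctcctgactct
The sequence is that of the reference and not of the Cre allele.

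Other genes of the pentose phosphate pathway were at like levels in both libraries or had too few UMIs to tell. In the oxidative branch, G6pdx, which encodes its first and rate-limiting enzyme, had 16 and 21 UMIs, ratio -0.42 (-1.42 to 0.62). Pgls, whose product opens the lactone that G6pdx yields, had 192 and 236 CPM, ratio 0.30 (-0.16 to 0.78). In the non-oxidative branch, transketolase (Tkt) had 293 and 306 CPM, ratio 0.06 (-0.32 to 0.46), and transaldolase (Taldo1) 653 and 598 CPM, ratio -0.13 (-0.39 to 0.14). None of the 3 pathway genes with at least 50 UMIs was past 1.5-fold, and H6pd, Rpia, Rpe and Rbks had at most 20 UMIs in a library.

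Over all genes, 213 of 2144 (9.93%) were at least 1.5-fold higher in Pgd fl/fl LysMCre monocytes and 146 (6.81%) at least 1.5-fold lower. For 28 and 14 of them the whole interval lay past 1.5-fold. The 5 richest cells held over 50% of the UMIs, in the library where the gene was higher, for 34 of the higher and 65 of the lower genes. Since 5 cells are a larger share of 35 cells than of 69, a lower gene met this mark more easily, and the counts below rest on it. Without such genes, those of the rule, mitochondrial and ribosomal genes and those under 100 UMIs, 9 higher and 4 lower genes remained whose interval lay wholly past 1.5-fold.

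The higher genes had several known roles, and 8 of the 9 are described. Smad7, an inhibitor of TGF-β signaling, had 63.9 and 221 CPM, ratio 1.79 (1.08 to 2.57), in 13 and 39 cells. Lmna, which encodes lamin A/C of the nuclear envelope, had 57.2 and 159.5 CPM, ratio 1.48 (0.71 to 2.33), in 11 and 28 cells. Both were at low levels, with a median of 0 or 1 UMIs per cell. The linker histone gene Hist1h1c had 205 and 471 CPM, ratio 1.20 (0.79 to 1.63), in 19 and 52 cells, and Basp1, a membrane-bound signaling protein, 242 and 523 CPM, ratio 1.11 (0.73 to 1.5). Cd14, the coreceptor of bacterial lipopolysaccharide, had 296 and 615 CPM, ratio 1.05 (0.71 to 1.41), in 21 and 51 cells with a median of 1 and 3 UMIs and a highest of 11 and 28. With cells thinned to 3000 UMIs, Cd14 was seen in 37.1% and 62.7% of monocytes and in 1.76% and 2.99% of T cells.

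Fabp5, a fatty acid binding protein, had 485 and 997 CPM, ratio 1.04 (0.77 to 1.32), with a median of 1 and 1 and a highest of 28 and 68 UMIs. Odc1, ornithine decarboxylase, which starts polyamine synthesis, had 337 and 642 CPM, ratio 0.93 (0.60 to 1.27), in 27 and 49 cells. Il1b, which encodes the cytokine IL-1β, had 1727 and 2911 CPM, ratio 0.75 (0.61 to 0.90), in 29 and 56 cells with a highest of 123 and 161 UMIs. The median monocyte had 8 and 8 Il1b UMIs, which scaled to the depth of each cell was 1040.2 and 1409 CPM, with upper quartiles of 2106 and 4027 CPM. Without members that had a UMI of T, B or epithelial genes, which left 26 and 51, the ratio of Il1b was 0.31, and with cells thinned to 3000 UMIs that of Smad7 was 0.53, both within 1.5-fold. For each of the 8 genes both libraries held monocytes at 0 UMIs, so the per-cell ranges overlapped.

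Of the 4 lower genes, Lyz2 is given above. Lst1, a membrane protein of leukocytes, had 1053 and 517 CPM, ratio -1.03 (-1.27 to -0.79), in 33 and 60 cells with a median of 5 and 3 UMIs. Klf2, a zinc finger transcription factor of quiescent leukocytes, had 1636 and 832 CPM, ratio -0.98 (-1.17 to -0.79), with a median of 9 and 1 and a highest of 75 and 54 UMIs. Sat1, whose product acetylates polyamines and so starts their breakdown, had 993 and 538 CPM, ratio -0.88 (-1.12 to -0.64), with a median of 6 and 3 UMIs. The median cell was lower in Pgd fl/fl LysMCre for all 3, and their ranges overlapped. With cells thinned to 3000 UMIs, the ratios of Lst1 and Sat1 were -0.55 and -0.39, both within 1.5-fold.

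**Figure D2:**
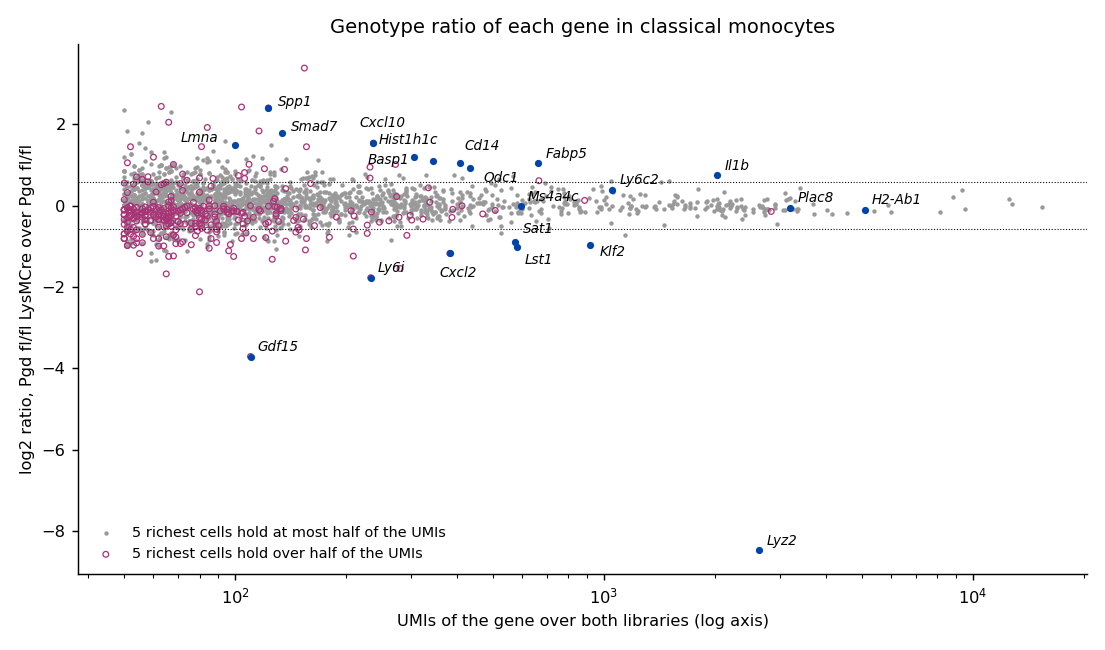
Each point is a gene with at least 50 UMIs, placed by its UMIs over both libraries (horizontal, log scale) and its log2 ratio of Pgd fl/fl LysMCre over Pgd fl/fl in classical monocytes (vertical). Dotted lines mark 1.5-fold, open circles are genes with over 50% of their UMIs in 5 cells, and blue points are named genes. Lyz2 lies far below the others at -8.46.

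Several large ratios rested on few cells. Of the 215 Cxcl2 UMIs in Pgd fl/fl, 171 came from 1 cell, and the ratio of -1.17 (-1.47 to -0.87) turned to 1.72 among members with at least 10 UMIs of Ly6c2 and Chil3 and to 1.16 among those with fewer than 5 C1q UMIs. Gdf15, a stress-induced cytokine of the TGF-β family, had 97 and 13 UMIs in 8 and 5 cells, ratio -3.71 (-4.67 to -2.87), with 95.9% of the Pgd fl/fl UMIs in 5 cells. Spp1 (osteopontin) had 12 and 111 UMIs in 7 and 13 cells, ratio 2.40 (1.54 to 3.40), which was 0.69 among members with at least 10 UMIs of Ly6c2 and Chil3 and 0.72 with cells thinned to 3000 UMIs. For these 3 genes a handful of cells set the level of a library, and Gdf15 was named after its values were seen.

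Of 12 chemokine genes with at least 50 UMIs, 3 were at least 1.5-fold higher (Ccl24, Cxcl9 and Cxcl10) and 1 lower (Cxcl2), with a median ratio of 0.37. Cxcl9, an interferon-induced ligand of CXCR3, had 609 and 932 CPM, ratio 0.61 (0.36 to 0.87), in 14 and 18 cells. Its ratio was within 1.5-fold as a mean of CPM per cell (0.076), without members with 3 UMIs of another type (0.24), with cells thinned to 3000 UMIs (0.45), without the 5% deepest members (0.47) and with at least 10 UMIs of Ly6c2 and Chil3 (0.54). Cxcl10, a ligand of the same receptor, had 131 and 381 CPM, ratio 1.54 (1.03 to 2.07), in 6 and 10 cells, or 17.1% and 14.5%. The 5 richest cells held 97.4% and 91.4% of the Cxcl10 UMIs, so its ratio too rested on few cells. That ratio was 4.07 with at least 10 UMIs of Ly6c2 and Chil3. Both were thus found in a minority of cells. Ccl2, the ligand of CCR2, had 653 and 602 CPM, ratio -0.12 (-0.38 to 0.15), and 81.4% of its Pgd fl/fl UMIs were in 5 cells. Cxcl16 had 464 and 682 CPM, ratio 0.55 (0.27 to 0.85), and Ccl24 8 and 58 UMIs, from 3 cells in each library. Of 9 cytokine and sensor genes Il1b alone was past 1.5-fold, and the median was 0.33. Osm (oncostatin M) had a ratio of 0.50 (0.10 to 0.91), which was -0.047 among members with fewer than 5 C1q UMIs. The inflammasome sensor gene Nlrp3 had a ratio of 0.37 (-0.19 to 0.95) and the IL-1 receptor antagonist gene Il1rn one of 0.35 (-0.03 to 0.75).

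Interferon-stimulated genes were split. Of 38 with at least 50 UMIs, 5 were higher (Oasl1, Cxcl10, Cxcl9, Iigp1 and Slfn1) and 8 lower (Ifit1, Ifit3, Oasl2, Oas1a, Oas3, Ifih1, Slfn5 and Ly6i), and the median ratio was 0.03. Isg15, a ubiquitin-like modifier, had 653 and 953 CPM, ratio 0.55 (0.30 to 0.79), which was -0.078 with cells thinned to 3000 UMIs. Ifit3, which binds and restricts viral RNA with other IFIT proteins, had 172 and 108 CPM, ratio -0.67 (-1.25 to -0.10), and shares sequence with Ifit3b, so its count is uncertain. Slfn5 had 478 and 288 CPM, ratio -0.73 (-1.07 to -0.39), and Ifitm3, which blocks the entry of viruses, 3157 and 3523 CPM, ratio 0.16 (0.04 to 0.27). Genes of this group therefore stood on both sides, and the list median equalled that of all genes to 2 decimals.

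Antigen presentation genes were near equal. Of 9 MHC class II genes only Ciita, their coactivator, was past 1.5-fold, at 44 and 40 UMIs and -0.95 (-1.60 to -0.29), and the median was -0.19. H2-Ab1 had 6499 and 6082 CPM, ratio -0.10 (-0.18 to -0.01), with up to 276 and 287 UMIs per cell, and H2-Aa 6041 and 5314 CPM, ratio -0.19 (-0.27 to -0.10). The sign of the H2-Ab1 ratio was not stable, at 0.12 among members with at least 10 UMIs of Ly6c2 and Chil3 and 0.41 without members that had a UMI of T, B or epithelial genes. Of 14 MHC class I genes only Tap1, a subunit of the peptide transporter, was past 1.5-fold, at 246 and 146 CPM and -0.75 (-1.23 to -0.27), and the median was -0.06.

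Genes of macrophage maturation gave 7 higher and 3 lower of 18, with a median ratio of 0.27. Among the higher ones were Spp1, Ms4a7, Cd9, Fabp5, Ctsl and Lgmn, and the lower ones were C1qc, a gene of the rule, Mrc1 and Adgre1. Ctsl, the lysosomal protease cathepsin L, had 90.9 and 248 CPM, ratio 1.45 (0.84 to 2.10), in 13 and 33 cells, and the tetraspanin gene Cd9 80.8 and 163 CPM, ratio 1.02 (0.35 to 1.73), in 7 and 24 cells. With cells thinned to 3000 UMIs the ratio of Cd9 was 0.25, within 1.5-fold, and without members that had a UMI of T, B or epithelial genes that of Ctsl was 0.79. Adgre1, which encodes F4/80, had 33 and 29 UMIs, ratio -0.99 (-1.77 to -0.23). Maturation genes thus did not stand on one side.

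Growth factor receptor and transcription factor genes gave 2 higher, Csf2rb2 among them, and 4 lower (Csf3r, Klf2, Klf4 and Zeb2) of 17, with a median of 0.07. Klf4, a transcription factor of monocyte differentiation, had 841 and 532 CPM, ratio -0.66 (-0.91 to -0.41), with a median of 5 and 2 UMIs per cell. Zeb2, another transcription factor of the monocyte lineage, had 451 and 252 CPM, ratio -0.84 (-1.20 to -0.48), in 31 and 47 cells. Csf2ra, a subunit of the GM-CSF receptor, had 232 and 229 CPM, ratio -0.02 (-0.46 to 0.43), and its partner Csf2rb 339.9 and 399.7 CPM, ratio 0.23 (-0.12 to 0.59). Of 12 chemokine receptor and adhesion genes, 2 were higher and 0 lower, and of 6 Fc receptor and signaling genes Fcgr1, a gene of the rule, and Fcgr4, at 0.78 (0.11 to 1.49), were higher and 0 lower.

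Of 12 suppressive effector genes Cd274 (PD-L1) alone was past 1.5-fold, at 108 and 167 CPM and 0.63 (0.03 to 1.27), and the median was 0.26. Thinned to 3000 UMIs, its ratio was -0.020. Arg1, arginase 1, had 7 and 29 UMIs in 2 and 4 cells, and Nos2, the inducible nitric oxide synthase, 0 and 4 UMIs in 0 and 2 cells. Neither effector was thus detected in most of these cells at this depth. Tgfbi, a TGF-β-induced matrix protein, had 1605 and 1455 CPM, ratio -0.14 (-0.31 to 0.03).

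In metabolism, few genes were past 1.5-fold. Of 14 glycolysis genes only Slc2a1, the glucose transporter GLUT1, was, with 15 and 79 UMIs in 11 and 26 cells and a ratio of 1.59 (0.78 to 2.49), and the median was 0.16. Pkm (pyruvate kinase) had 673 and 819 CPM, ratio 0.28 (0.04 to 0.53), and Aldoa (aldolase) 539 and 646 CPM, ratio 0.26 (-0.01 to 0.54). Nuclear genes of oxidative phosphorylation gave 3 higher (Ndufa10, Ndufb2 and Ndufs4) and 0 lower of 73, with a median of 0.05. Mitochondrially encoded genes gave 2 higher (mt-Atp8 and mt-Nd4l) and 0 lower of 12, with a median of 0.16. Of 16 antioxidant genes Txnrd1 alone was past 1.5-fold, at 14 and 40 UMIs and 0.71 (-0.20 to 1.70). Of 6 genes of the phagocyte NADPH oxidase, which uses NADPH to make superoxide, Ncf1 alone was, at 45 and 48 UMIs and -0.72 (-1.33 to -0.10). Of 10 mitochondrial fission and fusion genes 1, Fis1, reached 50 UMIs, with a ratio of 0.09 (-0.40 to 0.60).

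Of 76 genes whose symbols begin as those of ribosomal proteins do, 0 were past 1.5-fold, and the median was -0.05. Immediate early and heat shock genes, which respond to tissue dissociation, gave 1 higher (Dnajb1, at 1.01 (0.59 to 1.45)) and 1 lower (Hspa1b, at -0.73 (-0.90 to -0.56)) of 15, with a median of 0.01. Fos had 2026 and 2037 CPM, ratio 0.01 (-0.14 to 0.15).

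**Figure D3:**
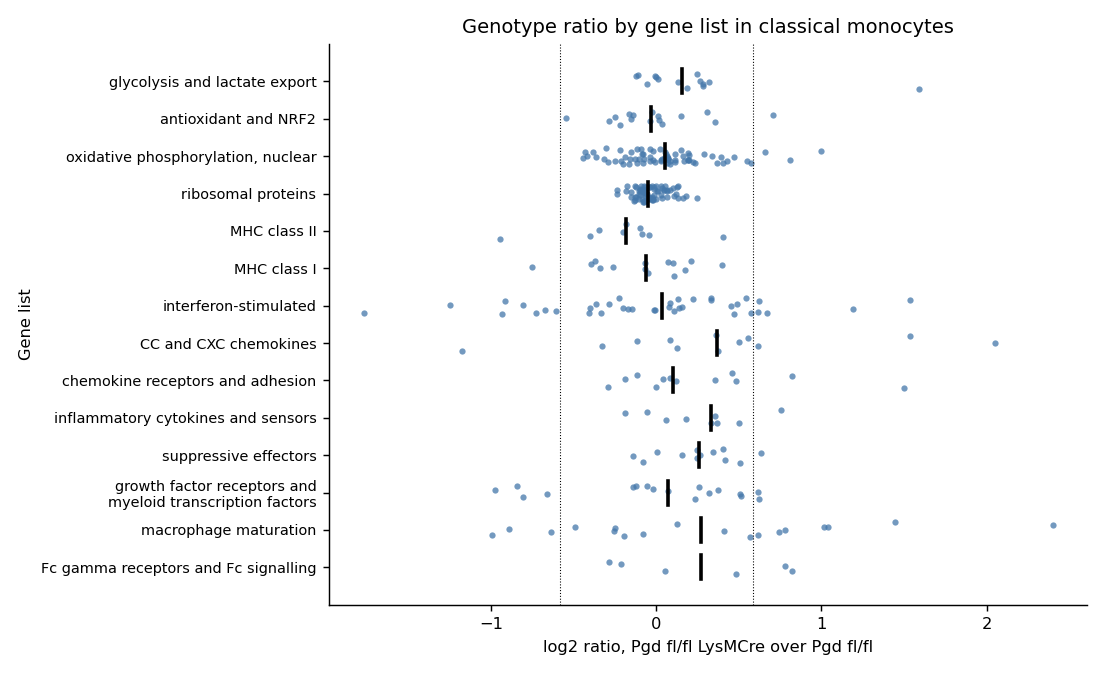
Each point is a gene with at least 50 UMIs, placed by its log2 ratio of Pgd fl/fl LysMCre over Pgd fl/fl in classical monocytes (horizontal axis) in the row of its gene list. Black bars are medians over the list, and dotted lines mark 1.5-fold. Ribosomal protein genes lie between -0.24 and 0.24, whereas interferon-stimulated and macrophage maturation genes spread to both sides.

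The cells differed among themselves along C1q, which the rule used as an upper limit. Of the Pgd fl/fl cells, 13 had 0 C1q UMIs, 16 had 1 to 9 and 6 had 10 to 29, and of the Pgd fl/fl LysMCre cells 40, 20 and 9. Plac8 was highest in cells with 0, at 5871, 3635 and 1849 CPM over the 3 bins in Pgd fl/fl and 4520.3, 2956 and 3239 CPM in Pgd fl/fl LysMCre. Ifitm3 was lower in each further bin in both libraries, at 4238, 2926 and 1942 CPM and 4327, 2647 and 2126 CPM. Lyz2 was at 12376, 9281 and 2343 CPM in Pgd fl/fl. These genes were thus lowest or near lowest where C1q was highest. H2-Ab1 was highest in the bin of 10 to 29, at 5267, 4953 and 11544 CPM in Pgd fl/fl and 4800.0, 7143 and 9279.7 CPM in Pgd fl/fl LysMCre. Cd74, the invariant chain of MHC class II, was at 11228, 8733 and 20405 CPM and 9689.7, 13072 and 14966 CPM. Il1b was also highest in that bin, at 1356, 945 and 3884 CPM and 2611, 2875 and 4488 CPM. The bins of 10 to 29 hold 6 and 9 cells, so single cells weigh in them. The cell with 171 Cxcl2 UMIs is among the 6, where Cxcl2 stood at 2805 CPM against 119 CPM in cells with 0.

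**Figure D4:**
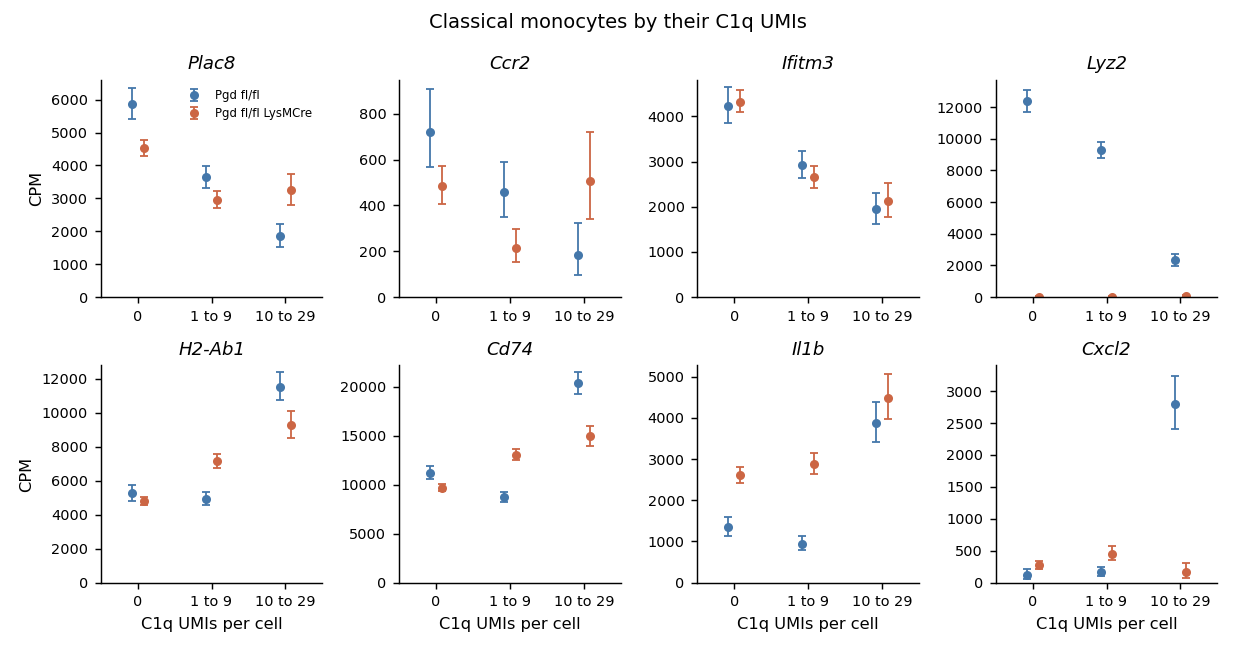
Level of 8 genes (vertical axes, CPM) in classical monocytes with 0, 1 to 9 or 10 to 29 C1q UMIs (horizontal axes) for Pgd fl/fl and Pgd fl/fl LysMCre, with exact 95% Poisson intervals of counting error. Ifitm3 is lower in each further bin in both libraries, while H2-Ab1, Cd74 and Il1b are highest in the bin of 10 to 29.

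Cells with a Chil3 UMI (20 and 33) were set beside those without (15 and 36), and several genes differed the same way in both libraries. The haptoglobin gene Hp had 216 against 15.9 CPM in Pgd fl/fl, with Chil3 first, and 372 against 74.7 CPM in Pgd fl/fl LysMCre. Ccr2 had 613 against 318 CPM and 550.4 against 292 CPM. The fibronectin gene Fn1 had 496 against 127 CPM and 353 against 169 CPM. These 3 genes, and Thbs1 (thrombospondin 1) at 1844 against 684 CPM and 2098 against 1319 CPM, were higher with Chil3. H2-Ab1 was lower with Chil3, at 4470.2 against 9264 CPM and 4996 against 6833 CPM. Il1b was lower too, at 1261 against 2362 CPM and 2583 against 3139 CPM. Ly6c2 differed in opposite directions, at 858 against 1368 CPM in Pgd fl/fl and 1933 against 1046 CPM in Pgd fl/fl LysMCre, and since a cell could enter by either gene, the rule ties Ly6c2 and Chil3. Hp, Ccr2, Fn1, Thbs1, H2-Ab1 and Il1b were named here after their values were seen.

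Against C1q macrophages of the same library (557 and 506 cells), 506 of 7815 genes (6.47%) were at least 1.5-fold higher in the classical monocytes in both libraries and 1196 (15.3%) at least 1.5-fold lower. The groups were cut on C1q, Ly6c2 and Chil3 of the same counts, so what follows is a description. Plac8 was 87.4-fold and 37.9-fold higher. The actin-binding protein gene Tmsb10 was 14.6-fold and 7.98-fold higher, Ccr2 12.4-fold and 6.03-fold, Ifitm3 8.66-fold and 7.49-fold and Thbs1 6.44-fold and 7.65-fold. Ly6i was 74.9-fold and 5.66-fold higher. Of these genes Ly6i differed most between the libraries in how far it stood from the macrophages. Vcam1, an adhesion receptor, had 16.8 and 11.5 CPM in the monocytes against 733 and 572 in the macrophages. Cd63, a tetraspanin of lysosomes, had 108 and 94.2 CPM against 1688 and 1367. The MHC class Ib gene H2-M2 had 2 and 1 UMIs in the monocytes and 4889 and 2839 in the macrophages, and the collagenase gene Mmp13 1 and 1 against 1230 and 2147. Interferon-stimulated genes gave 28 higher and 0 lower of 44, macrophage maturation genes, C1q included, 0 higher and 22 lower of 27, and cell cycle genes 0 higher and 18 lower of 20. Mki67, a marker of cycling cells, had 2 and 2 UMIs in the classical monocytes.

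Against non-classical monocytes, of which there were 15 and 31, 91 of 1072 genes (8.49%) were at least 1.5-fold higher in both libraries and 44 (4.1%) at least 1.5-fold lower. Interferon-stimulated genes gave 13 higher and 0 lower of 20. Isg15 had 653 and 953 CPM in classical and 61.3 and 209 CPM in non-classical monocytes. Irf7, an interferon regulatory factor, had 569 and 505 against 102 and 184 CPM. Ms4a4c was 3.11-fold and 3.40-fold higher, Thbs1 2.5-fold and 3.68-fold and Tgfbi 2.54-fold and 3.21-fold. Classical monocytes were thus the higher group for these genes in both libraries. Of the 5 marker genes given for classical monocytes, 2 (Ly6c2, a gene of the rule, and Ms4a4c) were at least 1.5-fold higher in both libraries and 0 lower. Chil3, Plac8 and Ly6i did not reach 1.5-fold in both. Of 13 further classical monocyte genes, 3 were higher (Ccr2, F13a1 and Thbs1) and 1, Klf4, was lower. Retnla, which encodes a resistin-like protein of alternatively activated cells, had 0 and 0 UMIs in the classical monocytes and 778 and 731 UMIs in the non-classical ones. Against a floor of 3 counts per library it was at least 787-fold and 542-fold lower. Itgal, the integrin subunit CD11a, was 8.47-fold and 4.04-fold lower. Nr4a1, a nuclear receptor on which non-classical monocytes depend, was 3.39-fold and 2.04-fold lower. Sat1 was 1.98-fold and 2.11-fold lower and Gpx1, glutathione peroxidase, 2.06-fold and 1.87-fold lower.

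Against neutrophils (30 and 50 cells, with a median of 2156 and 2111 UMIs), 398 of 1025 genes (38.8%) were at least 1.5-fold higher in both libraries and 220 (21.5%) at least 1.5-fold lower. Ribosomal protein genes gave 74 higher and 0 lower of 76 and nuclear oxidative phosphorylation genes 34 higher and 0 lower of 51. S100a4 had 2942 and 2416 CPM in the classical monocytes and 1 and 4 UMIs in all neutrophils. Ifi30, a lysosomal thiol reductase of antigen processing, had 1518 and 1136 CPM against 26.1 and 36.5. Ccl2 had 0 and 0 UMIs in neutrophils and was at least 16.7-fold and 22-fold higher. All 6 MHC class II genes measured in both groups were higher in the monocytes. G0s2, an inhibitor of lipolysis, had 0 and 1 UMIs in the monocytes and 274 and 495 in neutrophils. Cxcl2, the neutrophil-attracting chemokine gene, was 24.9-fold and 82.1-fold lower in the monocytes. Of 7 cytokine and sensor genes, 6 were lower and 0 higher.

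**Figure D5:**
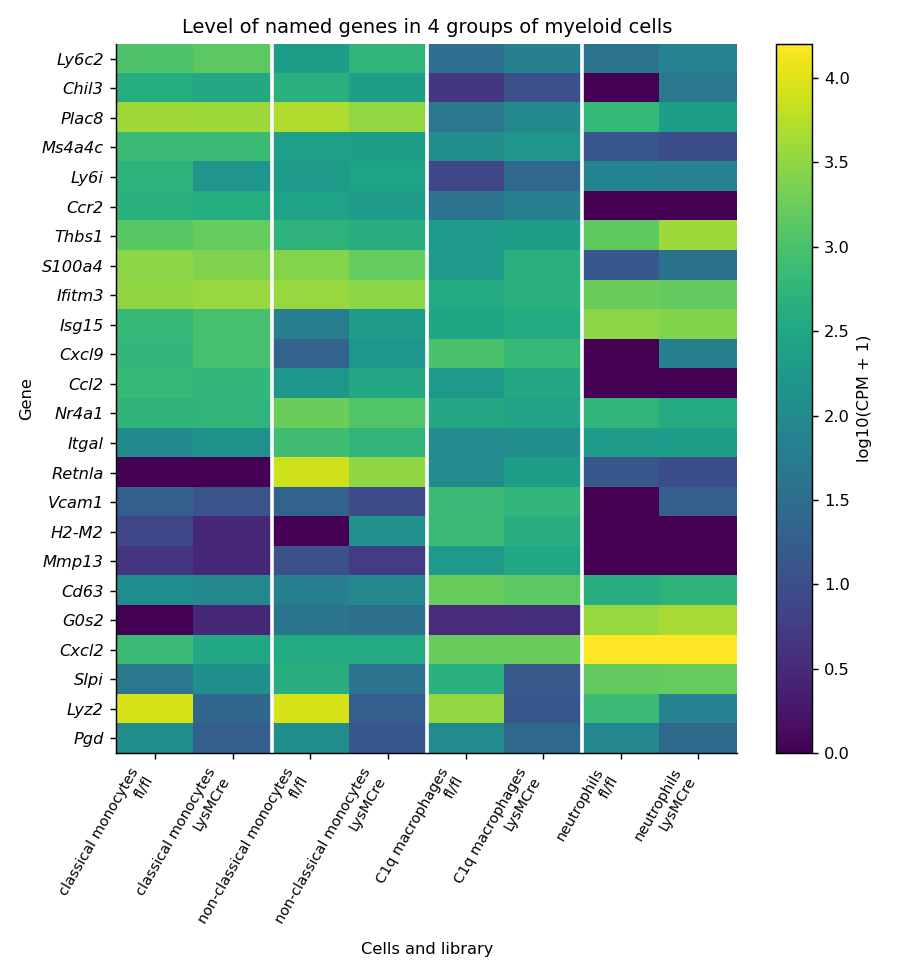
Level of 24 genes (rows, colour as log10 of CPM plus 1) in classical monocytes, non-classical monocytes, C1q macrophages and neutrophils of each library (columns). Retnla is at 0 in the classical monocytes of both libraries, Lyz2 is high in Pgd fl/fl and low in Pgd fl/fl LysMCre, and Vcam1 is highest in the C1q macrophages.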

How the data were processed

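Tumor-infiltrating leukocytes of 2 pools were measured by 10x single-cell RNA sequencing. The deposited values are raw counts (UMIs per gene and barcode) in filtered matrices. Per the submitters' processing notes, the authors made these matrices with Cell Ranger 6.1.2 on mm10. The authors also used Seurat, whose version is given in the methods of the study and not in those notes. The cell numbers that the study states differ from those its filters leave in the files. Kept barcodes had 500 to 7500 genes and no more than 15% mitochondrial UMIs, and doublets were not called. Groups follow the labels. The cells, gene lists and tests were chosen with earlier results of these data known.

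UMIs were summed per library over the classical monocytes and divided by their total. Ratios have exact conditional 95% intervals, levels exact Poisson and shares Clopper-Pearson intervals. With 1 library per genotype no test was made, and a gene with at least 50 UMIs over both libraries was counted when past 1.5-fold. Genes were named if they belong to the rule, the given markers or the pentose phosphate pathway, if at least 100 UMIs, an interval wholly past 1.5-fold and at most 50% of the UMIs in 5 cells held, if they were the first or up to 4 farthest from 0 of a list, or if they were among the 10 most different from another myeloid group in each direction. Genes named in other ways stand as members of a list or are said to be named after their values were seen. Comparisons with other groups used genes with at least 50 UMIs in each library. Non-classical monocytes had at least 3 UMIs of Ace, Adgre4 and Ear2, and neutrophils at least 10 of S100a8 and S100a9 and 2 of Csf3r, Cxcr2 and Retnlg. Some genes that the rule names are not reported here. The alternatives changed the limits of the rule, the depth, the scaling, the gene minimum and the fold. In the alternative with thinned cells the rule was applied again to the thinned counts. Scripts, tested on simulated data, ran in Python 3.11.15 with numpy 2.4.6, scipy 1.17.1, pandas 2.3.3, Biopython 1.88 and matplotlib 3.10.9.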

Additional observations from a re-analysis of the deposited data

Results flagged for a closer look

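For 17 named genes the ratio of Pgd fl/fl LysMCre over Pgd fl/fl had opposite signs in classical monocytes and in C1q macrophages, with neither interval including 0. Besides Pgd, 171 named genes had a finite ratio in the monocytes. The share over all genes is not given, and part of the named genes were picked for a large monocyte ratio. The count of 17 is therefore not read as a result. The macrophages held 6789665 and 6566021 UMIs, so their intervals were narrow. The difference between the groups was not tested, since each has 1 library per genotype. Higher in the monocytes and lower in the macrophages were Basp1 (1.11 against -0.20), Cd14 (1.05 against -0.08), Ctsl (1.45 against -0.10), Cxcl9 (0.61 against -0.63), Dnajb1 (1.01 against -0.32), Il1b (0.75 against -0.08), Lmna (1.48 against -0.30) and Odc1 (0.93 against -0.22). Lower in the monocytes and higher in the macrophages were Cxcl2 (-1.17 against 0.07), Ifit3 (-0.67 against 0.60), Klf4 (-0.66 against 0.19), Ly6i (-1.77 against 1.95), S100a4 (-0.28 against 1.20), Sat1 (-0.88 against 0.18), Slfn5 (-0.73 against 0.22), Zeb2 (-0.84 against 0.23) and Zfp36 (-0.48 against 0.24). Ly6i was farthest apart. Many macrophage ratios were small: only Cxcl9, Ifit3, Ly6i and S100a4 were past 1.5-fold there. In the monocytes, 171 of the 215 Cxcl2 UMIs of Pgd fl/fl came from 1 cell. The Cxcl2 ratio there turned to 1.72 with at least 10 UMIs of Ly6c2 and Chil3, and that of Cxcl9 was 0.076 as a mean of CPM per cell.

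The counts of the multiplexing tags entered no comparison, but the assignment to a genotype of cells loaded in common rests on these tags. Tags of the other library made up 3.55% of the tag UMIs of the Pgd fl/fl monocytes and 5.2% of those of the Pgd fl/fl LysMCre monocytes. In single cells they made up 1.43% to 9.53% and 0.847% to 17.3%.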

How the results depend on the processing

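With 104 cells in 2 libraries, depth limits genes under about 50 UMIs, and 1 cell can set a level. The Pgd ratio stayed between -3.11 and -2.52 in all alternatives run. With Pgd fl/fl first, the shares of classical monocytes were 0.505% and 1.18% with at least 10 UMIs of Ly6c2 and Chil3, and 4.71% and 8.25% of monocytic cells. Without members that had a UMI of T, B or epithelial genes the share in Pgd fl/fl LysMCre was 1.82% and 136 genes were higher. The counts of higher and lower genes were 79 and 52 with cells thinned to 3000 UMIs, which leaves fewer genes tested (798), 1178 and 1063 at a minimum of 10 UMIs, and 56 and 26 at 2-fold. Median ratio scaling gave 248 and 127. No paired analysis was possible because each genotype has 1 library.

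These ratios turned sign, and the cause was not tested. With at least 10 UMIs of Ly6c2 and Chil3, Cxcl2 was 1.72 and H2-Ab1 0.12. With fewer than 5 C1q UMIs, Ccl3 was -0.12, Cxcl2 1.16, Epcam 1.83, H2-Ab1 0.11 and Osm -0.047. Thinned, Adgre4 was 0.86, C1qb 0.28, Cd274 -0.020, Cxcl2 0.38, H2-Ab1 0.15, H2-DMa 0.16, Isg15 -0.078 and Thbs1 -0.29. Without members that had a UMI of T, B or epithelial genes, Bst2 was -0.061, Crip1 -0.36, H2-Aa 0.10, H2-Ab1 0.41, H2-Eb1 0.070, Rpl37 0.079, S100a10 -0.072 and Tmsb10 -0.055. Without members with 3 UMIs of another type, an alternative chosen after seeing the data, H2-Ab1 was 0.11. Il1b was also within 1.5-fold as a mean of CPM per cell (0.58) and without the 5% deepest members (0.53). The alternatives were judged by point ratios only. Of the 13 genes whose interval lay wholly past 1.5-fold, all but Il1b, Smad7, Lst1 and Sat1 stayed past 1.5-fold there. Odc1 came nearest to it, at 0.65 as a mean of CPM per cell, then Basp1, at 0.67 thinned.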
